A study of Mus musculus with 8 samples.

Results

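Heparan sulfate is a sulfated sugar chain carried by proteins of the cell surface and the extracellular matrix, and 40 mouse genes that build it, edit it or carry it were followed in left ventricles with and without raised miR-100, a microRNA. The genes were taken by name: a row of the array table belonged to the set when the platform's gene symbol was 1 of the 40. Of the 40 genes, 38 had a row, 1 each, among 19505 gene symbols in all, and Ndst1 and Glce were not analysed here. The table held 8 arrays, each of 1 mouse. Wild type animals made up 4 of them, and the genotype of the remaining 4 is cardiac-specific microRNA-100 overexpression. All 8 were male, 8 weeks of age and untreated, of the strain labelled C57/BL6J, and the promoter that drives the microRNA is not named in the labels. The comparison asks which of these transcripts differ in the resting ventricle when miR-100 is raised. Litters or cultures that arrays might share are not given, and the 8 arrays were treated as independent. Each limma p-value sets a group difference against the spread of arrays within groups, moderated over all rows.

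A heparan sulfate chain starts as a short sugar linker on a serine of a core protein, is lengthened by the exostosin polymerases, and is then modified in the Golgi by removal of acetyl groups, epimerization and the addition of sulfate at the N, 2-O, 6-O and 3-O positions. After secretion, the SULF enzymes remove 6-O sulfate and heparanase cuts the chain. The pattern of sulfate groups sets which growth factors, morphogens and enzymes the chain can hold, among them fibroblast growth factors and vascular endothelial growth factor, and in the heart the chains are carried by syndecans and glypicans on cells and by perlecan in basement membranes.

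MicroRNAs find their targets mainly through the seed, bases 2 to 8 counted from the 5′ end. The mature strand of mouse miR-100 is shown with its relatives because Hs3st2 and Hs3st3b1, both 3-O-sulfotransferase genes of the set, are reported targets of this family. In the RefSeq microRNA table (GRCm38.p6), 3 mature mouse microRNAs carried the same seed, which is in capitals.
mmu-miR-100-5p: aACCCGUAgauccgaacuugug
mmu-miR-99a-5p: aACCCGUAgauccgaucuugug
mmu-miR-99b-5p: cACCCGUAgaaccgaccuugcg
miR-100-5p lies at chr9:41531437-41531458, miR-99a-5p at chr16:77598940-77598961 and miR-99b-5p at chr17:17830194-17830215, each on the plus strand. Against miR-100-5p, whose base is written first, miR-99a-5p differed at 1 of 22 positions (A16U) and miR-99b-5p at 4 (A1C, U11A, A16C and U21C), and none of these lies in the seed. The array has 0 rows named for miR-100 or its host gene, so the level of the microRNA itself is not given.

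Of the 38 measured genes, 1 passed the test, at a limma adjusted p under 0.05. That call held in 1 of 8 fits with an array left out. Sulf2, the extracellular 6-O-endosulfatase, rose 1.94-fold in the miR-100 hearts, while Sulf1, its sister enzyme with the same activity, differed by -0.18 on the log2 scale and did not pass the test. Both reported miR-99/100 targets, Hs3st2 and Hs3st3b1, lay within the spread of the wild type arrays, with differences of -0.17 and 0.05. The largest differences after Sulf2 were in core proteins, at 0.57 for Sdc4 and -0.65 for Gpc2, and neither passed. In the table of 22206 rows, 31 had a limma p below 0.05 after Benjamini-Hochberg adjustment, which is 0.140% of the table.

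The differences of the 38 genes were centred close to 0, with 21 above and 17 below. Their median was 0.06 (log2), against -0.015 for the whole table. The median absolute difference was 0.15 for the 38 genes against 0.135 for all rows. At an unadjusted p under 0.05 there were 4 of the 38 genes, or 10.5%, against 7.73% of all rows. Of these 4, Sulf2 and Sdc4 were higher and Sdc3 and Gpc2 lower, beside 3.55% of all rows higher and 4.17% lower at that level. The 4 values of each group did not overlap in 2 genes, Sulf2 and Sdc3, which is 5.26% of the set beside 4.54% of all rows.

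**Figure D1:**
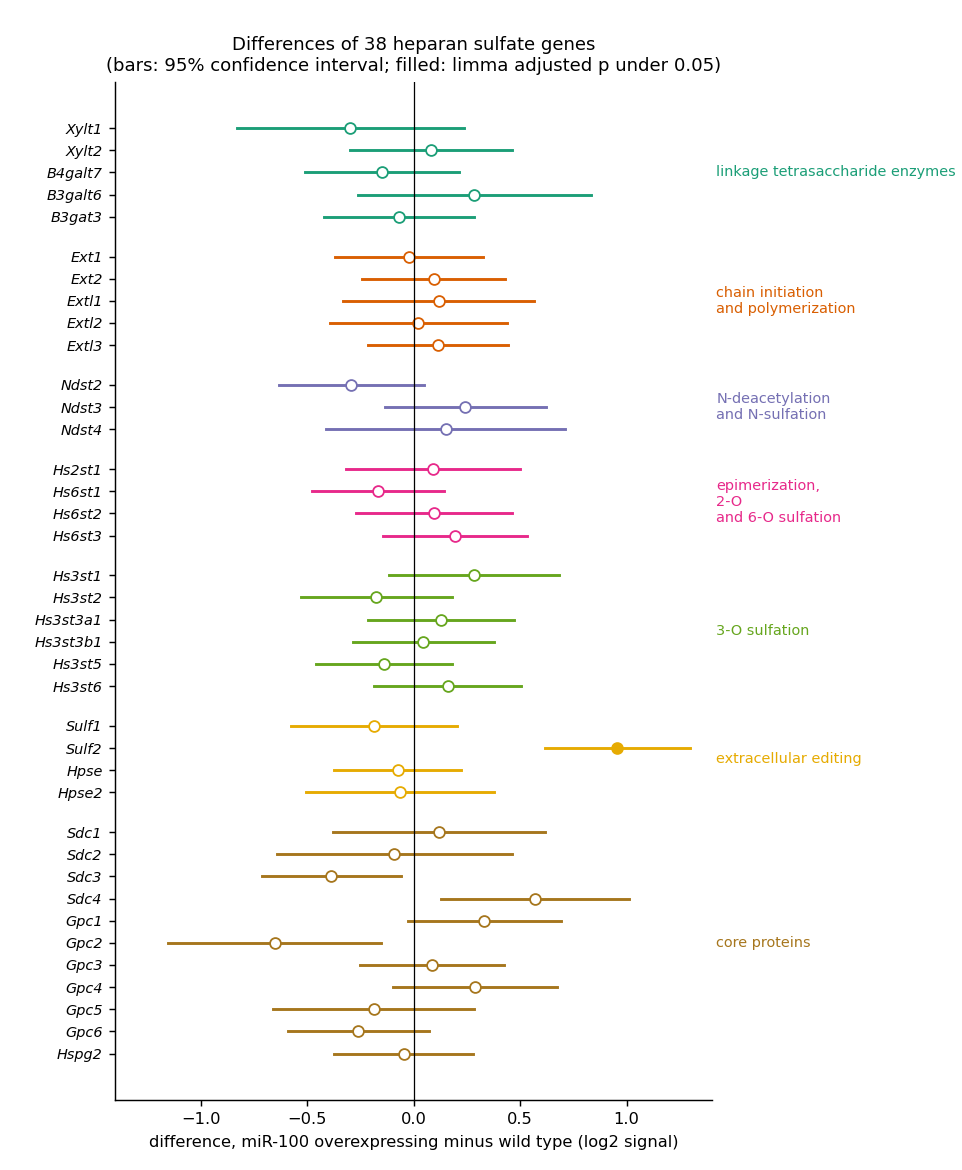
Difference between miR-100 overexpressing and wild type hearts (log2 signal, x axis) for the 38 measured heparan sulfate genes, grouped by step of the pathway, with the 95% confidence interval of the limma fit as a bar. Sulf2 at 0.96 is the filled point, the 1 gene with an adjusted p under 0.05, and the intervals of Sdc4, Sdc3 and Gpc2 also leave out 0.

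How far the arrays could see differs between genes. A row of an odorant receptor gene, a family mostly silent outside the nose, had a median level of 3.86, and 95% of the 1091 such rows lay at or below 5.05 (log2 signal, mean of 8 arrays). In 14 of the 38 heparan sulfate genes the mean also lay at or below 5.05, namely Xylt2, B3gat3, Ndst3, Ndst4, Hs6st2, Hs6st3, Hs3st3a1, Hs3st3b1, Hs3st5, Hs3st6, Hpse, Hpse2, Gpc2 and Gpc5. For these dim rows a small difference, in either direction, says little about the transcript. The standard error of a difference ran from 0.14 to 0.26 over the 38 genes, and for 15 of them the whole 95% interval lay between -0.5 and 0.5. For 22 of the 37 genes that did not pass, a difference of 0.5 in 1 direction or the other lies within the interval.

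The chain begins with the linker, and none of its 5 genes passed the test (0 in limma, lowest unadjusted p = 0.248, beside 0.140% of all rows past the threshold). Xylt1 and Xylt2 encode the xylosyltransferases that attach the first sugar to the core protein. Xylt1 had 6.87, 5.96, 6.10 and 5.67 in wild type replicates 1 to 4 and 5.93, 6.27, 5.80 and 5.41 in miR-100 replicates 1 to 4 (log2 signal). The groups overlapped, with wild type replicate 1 highest and miR-100 replicate 4 lowest, and the difference was -0.30 (95% confidence interval -0.83 to 0.23). Xylt2 differed by 0.08. The galactosyltransferase genes B4galt7 and B3galt6, which add the next sugars, differed by -0.15 and 0.28. B3galt6 was among the genes with the most scatter, with wild type values of 4.49, 5.75, 4.59 and 5.36 that span all 4 miR-100 values, from 5.12 to 5.64. B3gat3, the glucuronyltransferase that completes the linker, differed by -0.07.

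None of the 5 genes of chain initiation and polymerization passed (0 in limma). Ext1 and Ext2 encode the paired subunits of the polymerase. Ext1 had 11.88, 11.36, 11.50 and 11.50 in wild type hearts and 11.38, 11.40, 11.57 and 11.80 in miR-100 hearts, and Ext2 had 5.90, 6.15, 6.39 and 6.36 against 6.40, 6.25, 6.41 and 6.12 (log2 signal). The ranges overlapped in both genes, and the differences were -0.02 (95% confidence interval -0.37 to 0.33) and 0.095 (-0.24 to 0.43). Extl3, the glycosyltransferase that commits the linker to heparan sulfate, averaged 9.76 ± 0.15 and 9.87 ± 0.20 (SD, n = 4 each), or 0.11 apart. Extl2, a related transferase that can stop chain growth, differed by 0.02 and Extl1 by 0.12. All 5 genes had unadjusted p-values of 0.472 or more (limma).

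N-deacetylase/N-sulfotransferases replace acetyl groups with sulfate and open the chain to the later steps. Of the 3 genes with a row, 0 passed (limma, lowest adjusted p = 0.709). Ndst2 had 6.78, 6.73, 6.61 and 6.52 in wild type hearts and 6.33, 6.28, 6.72 and 6.14 in miR-100 hearts (log2 signal). Of the miR-100 arrays 3 lay below every wild type array and replicate 3 lay among them, and the difference was -0.29 (SE 0.16, limma adjusted p = 0.709). Ndst3 and Ndst4 were dim, with differences of 0.24 and 0.15. Wild type replicate 2 stood apart for Ndst4 at 4.36, while the 3 remaining arrays of that group ran from 3.11 to 3.21. Without that array the Ndst4 difference was 0.45 (limma adjusted p = 0.544).

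Hs2st1 adds sulfate to the uronic acid and the HS6ST enzymes to the glucosamine, making the 6-O sulfates that SULF2 later removes. None of these 4 genes passed (0 in limma, lowest unadjusted p = 0.241). Hs6st1 had 6.94, 6.91, 6.71 and 6.99 in wild type hearts and 6.75, 6.89, 6.52 and 6.72 in miR-100 hearts (log2 signal), with overlap and a difference of -0.17 (95% confidence interval -0.48 to 0.14). Hs6st2 and Hs6st3, both dim, differed by 0.095 and 0.19, and Hs2st1 by 0.09. The interval of Hs2st1 ran from -0.32 to 0.50.

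The 3-O-sulfotransferases place the rarest sulfate, which makes the antithrombin binding site of heparin and the binding sites of a few other proteins. All 6 listed genes of this family had a row and 0 passed (limma, lowest adjusted p = 0.784). Hs3st2 had 5.60, 6.01, 6.23 and 5.79 in wild type hearts and 5.77, 5.61, 5.91 and 5.64 in miR-100 hearts (log2 signal). The ranges overlapped, the lowest value of all was a wild type array, and the difference was -0.17 (SE 0.16, 95% confidence interval -0.53 to 0.18, limma adjusted p = 0.876). Hs3st3b1 had 4.49, 4.95, 4.84 and 4.65 in wild type hearts and 4.91, 4.83, 4.81 and 4.56 in miR-100 hearts. Every miR-100 value lay inside the wild type range, and the difference was 0.05 (SE 0.15, 95% confidence interval -0.29 to 0.38, limma adjusted p = 0.974). The row of Hs3st3b1 is 1 of the 14 dim ones, so its interval sets no bound on a fall of the transcript. Without wild type replicate 1 the Hs3st3b1 difference turned to -0.04. The array measures RNA, and an effect on translation of these targets would not show in it.

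Hs3st3a1, whose enzyme makes the same product as Hs3st3b1, averaged 3.85 ± 0.28 and 3.97 ± 0.06 (SD, n = 4 each), or 0.13 apart. Hs3st1, the main antithrombin-type 3-O-sulfotransferase, had the largest difference of the family at 0.28, with 6.16, 5.39, 5.55 and 5.37 in wild type hearts and 5.86, 5.73, 6.07 and 5.95 in miR-100 hearts. The highest wild type value, in replicate 1, was above all miR-100 values while the other wild type values were below them, and without that array the Hs3st1 difference was 0.47 (limma adjusted p = 0.468). Hs3st5 and Hs3st6 were dim and differed by -0.14 and 0.16.

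Extracellular editing held the 1 gene that passed the test. Sulf2 had 10.84, 10.82, 11.15 and 10.93 in wild type replicates 1 to 4 and 11.80, 11.65, 12.20 and 11.91 in miR-100 replicates 1 to 4 (log2 signal). All miR-100 arrays lay above all wild type arrays, and the lowest of them exceeded the highest wild type array by 0.50. The means were 10.94 ± 0.15 and 11.89 ± 0.23 (SD, n = 4 each), and the difference was 0.96 (SE 0.16, 95% confidence interval 0.61 to 1.30, limma adjusted p = 0.0369). By size it was the 18th of the 21 rows that passed with a rise, and by p-value the 23rd of all rows. Leaving out an array kept the difference between 0.85 and 1.04, but the limma adjusted p stayed under 0.05 only without miR-100 replicate 2 (0.0415). It was 0.102, 0.122, 0.0577 and 0.0832 without wild type replicates 1 to 4, and 0.0961, 0.128 and 0.0999 without miR-100 replicates 1, 3 and 4.

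Sulf1 did not pass the test. It had 9.54, 9.79, 9.76 and 10.23 in wild type hearts and 9.33, 9.89, 9.57 and 9.79 in miR-100 hearts (log2 signal), with a difference of -0.18 (SE 0.18, 95% confidence interval -0.58 to 0.21, limma adjusted p = 0.883). The difference between both genes in the same array, from which any shift common to a whole array drops out, is given as a description, since it was set with the rise of Sulf2 known. Sulf2 minus Sulf1 was 1.30, 1.03, 1.39 and 0.70 in wild type arrays and 2.47, 1.76, 2.63 and 2.12 in miR-100 arrays. The groups did not overlap, and the mean difference rose by 1.14, from 1.10 ± 0.31 to 2.25 ± 0.39 (log2, SD). With 1 array left out in turn, the rise of the mean lay between 1.005 and 1.30.

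**Figure D2:**
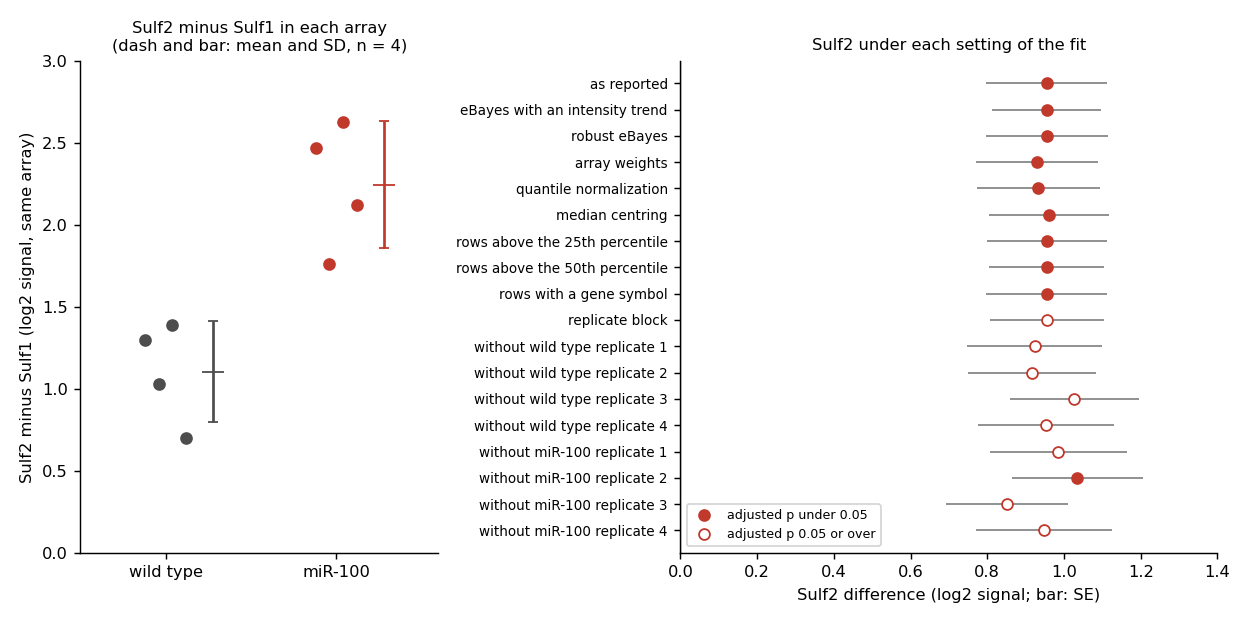
Left, the signal of Sulf2 minus that of Sulf1 in each array (log2, y axis), with mean and SD for 4 arrays a group; the miR-100 arrays start at 1.76 and the wild type arrays end at 1.39. Right, the Sulf2 difference with its standard error under each setting of the fit (log2, x axis); the estimate stays between 0.85 and 1.04, and open points mark fits with an adjusted p of 0.05 or over.

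Hpse, heparanase, cuts the chain into fragments, and Hpse2 is a relative without that activity. Both rows were dim. Hpse had 3.94 ± 0.13 and 3.86 ± 0.10 (SD, n = 4 each) and Hpse2 3.62 ± 0.36 and 3.55 ± 0.30, with differences of -0.08 and -0.06.

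RefSeq lists a pair of start sites for Sulf2 on chromosome 2 (GRCm38.p6, minus strand). Their promoter windows are shown because Sulf2 is the gene that passed the test. The array row does not tell transcripts from the start sites apart. Each window runs from 250 bases before to 50 after a start site, 5′ to 3′ along the gene, and matches to the motifs searched are in capitals.
Sulf2 at chr2:166155236-166155535: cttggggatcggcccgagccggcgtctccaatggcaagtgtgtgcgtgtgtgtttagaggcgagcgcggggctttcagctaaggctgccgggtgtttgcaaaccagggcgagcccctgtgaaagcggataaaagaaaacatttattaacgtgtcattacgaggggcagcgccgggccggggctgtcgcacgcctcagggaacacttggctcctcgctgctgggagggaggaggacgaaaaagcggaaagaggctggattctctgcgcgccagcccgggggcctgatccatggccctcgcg
Sulf2 at chr2:166155634-166155933: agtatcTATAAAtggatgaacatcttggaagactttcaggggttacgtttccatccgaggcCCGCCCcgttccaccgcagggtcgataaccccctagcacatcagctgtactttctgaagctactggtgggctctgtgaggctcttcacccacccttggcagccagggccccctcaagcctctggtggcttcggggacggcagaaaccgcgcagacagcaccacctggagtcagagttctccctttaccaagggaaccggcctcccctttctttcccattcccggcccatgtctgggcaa
The motifs were the E-box CACGTG, the GC box GGGCGG, the TATA box TATAAA and the NF-kappaB motif, on both strands, with overlapping matches allowed. The first window held 0 matches, and the second held 1 TATA box letter match at base 7 and 1 GC box at base 62 of the window. Of all 32851 RefSeq windows of this length, 7.15% held the E-box, 35.7% the GC box, 13.6% the TATA box and 4.51% the NF-kappaB motif. The table had 34 windows for 30 of the 40 genes, of which 3 held the E-box (Ext2, Extl2 and Hs3st3a1), 22 the GC box, 3 the TATA box (Gpc5, Hs6st2 and Sulf2) and 2 the NF-kappaB motif (B4galt7 and Sdc4). These are counts of letters, and no binding was measured.

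**Figure D3:**
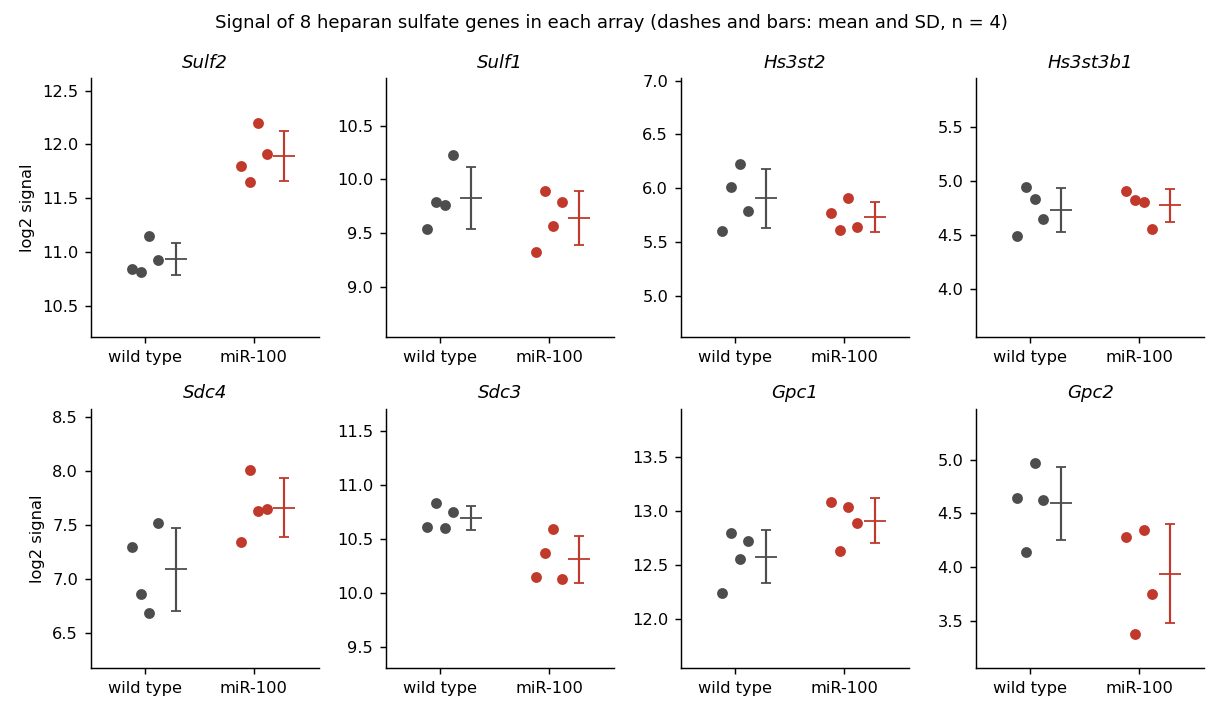
Log2 signal (y axis) in each of the 4 wild type and 4 miR-100 arrays for Sulf2, Sulf1, both reported miR-99/100 targets and 4 core protein genes, with mean and SD; every panel spans the same number of log2 units. Sulf2 and Sdc3 are the panels without overlap, by 0.50 in Sulf2 and by 0.01 in Sdc3.

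Among the 11 core proteins, which carry the chains, 0 passed (limma, lowest adjusted p = 0.458) and 3 had an unadjusted p under 0.05, beside 7.73% of all rows. Sdc4, the syndecan of focal adhesions, had 7.29, 6.86, 6.68 and 7.52 in wild type hearts and 7.34, 8.01, 7.63 and 7.65 in miR-100 hearts (log2 signal). Of the miR-100 arrays 3 lay above all wild type arrays and replicate 1 lay among them, and the difference was 0.57 (SE 0.20, 95% confidence interval 0.13 to 1.01, limma adjusted p = 0.465). Sdc3, another syndecan, had 10.61, 10.83, 10.60 and 10.75 against 10.15, 10.37, 10.59 and 10.13. The groups did not overlap, by the margin of 0.01, and the difference was -0.39 (SE 0.15, 95% confidence interval -0.71 to -0.06, limma adjusted p = 0.531). Sdc1 and Sdc2 differed by 0.12 and -0.09. Sdc2 was uneven within groups, from 7.51 to 8.83 in wild type hearts and from 7.58 to 8.39 in miR-100 hearts. The 4 syndecan genes thus gave differences on both sides of 0.

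Glypicans are held to the membrane by a lipid anchor. Gpc1 had 12.24, 12.80, 12.56 and 12.72 in wild type hearts and 13.09, 12.63, 13.04 and 12.89 in miR-100 hearts (log2 signal), with overlap and a difference of 0.33 (95% confidence interval -0.03 to 0.69, limma adjusted p = 0.688). Gpc2 had 4.64, 4.14, 4.97 and 4.62 against 4.28, 3.38, 4.35 and 3.75. Its difference was -0.65 (SE 0.23, 95% confidence interval -1.15 to -0.15, limma adjusted p = 0.458), and the groups overlapped through wild type replicate 2. The row is 1 of the 14 dim ones. Gpc4 had 8.00 ± 0.36 and 8.29 ± 0.09 (SD, n = 4 each), and Gpc6 had 6.99 ± 0.19 and 6.73 ± 0.17, with differences of 0.29 and -0.26. Gpc3 and Gpc5 differed by 0.09 and -0.19. Hspg2, which encodes perlecan of the basement membrane, had 11.34, 11.24, 11.60 and 11.26 against 11.12, 11.48, 11.46 and 11.19, a difference of -0.05 (95% confidence interval -0.38 to 0.28).

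**Figure D4:**
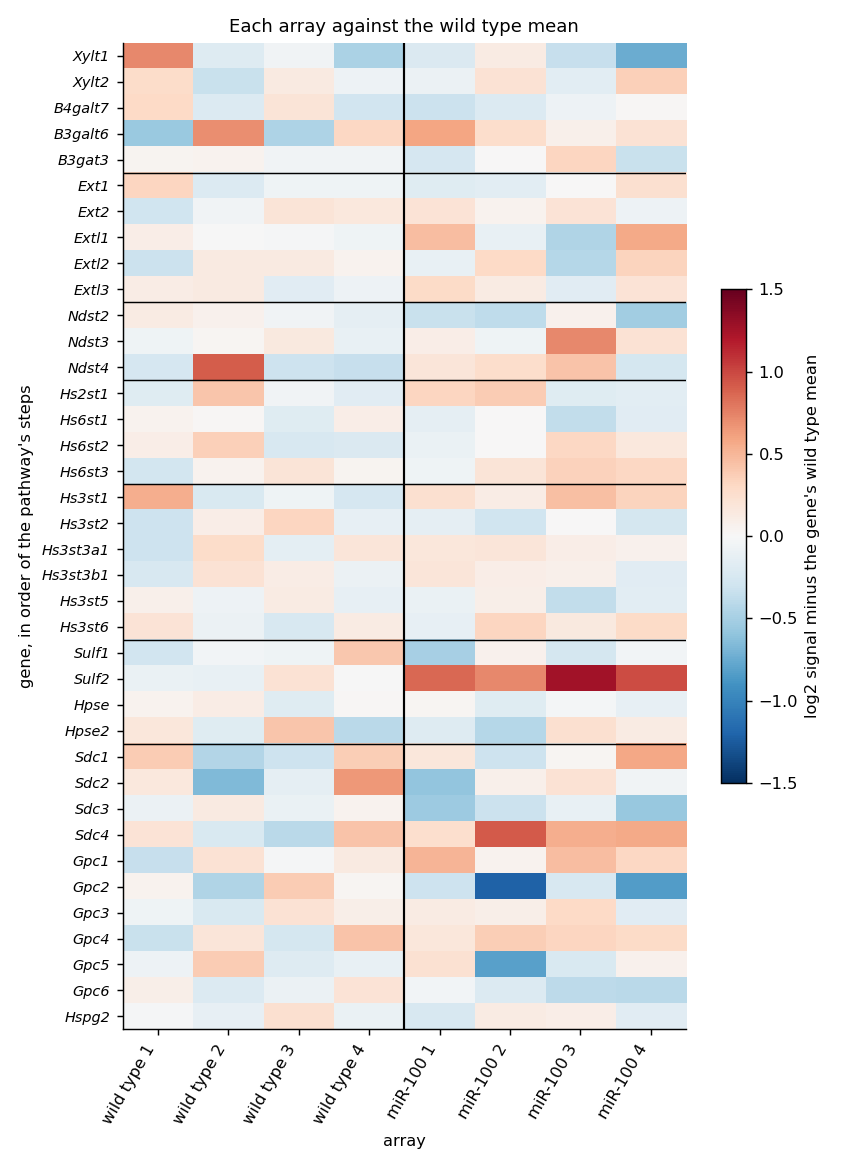
Log2 signal of the 38 genes (rows, in the order of the pathway's steps) in each of the 8 arrays (columns), as the difference from the gene's wild type mean. In the row of Sulf2 all 4 miR-100 arrays lie above the 4 wild type arrays of that row, and Ndst4 shows the single bright cell of wild type replicate 2.

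Genes around the pathway were taken from 7 lists, which like the steps above were drawn up with earlier results of these arrays known. Of 118 measured genes 1 passed, and 20, or 16.9%, had an unadjusted p under 0.05, with 8 higher and 12 lower (all rows: 0.140% and 7.73%). None of the genes that supply sulfate and sugar nucleotides (13 measured), phosphorylate or dephosphorylate the linker (2), degrade the chain in lysosomes (9) or build chondroitin and dermatan sulfate (15) passed (0 in limma), and their median differences were 0.06, 0.05, 0.13 and 0.06. The lowest unadjusted p of these lists belonged to Papss2, a synthase of the sulfate donor, at -0.38, the linker kinase gene Fam20b at 0.17, Sumf1, which activates sulfatases including SULF2, at 0.36, and the chondroitin sulfotransferase gene Chst7 at -0.38. At an unadjusted p under 0.05 the lysosomal list had 2 genes higher and 1 lower, and the donor and chondroitin lists 1 lower each. Among 8 measured carriers beside the listed core proteins, Cd44 was at 7.06 ± 0.43 and 7.84 ± 0.50 (SD, n = 4 each), which differ by 0.78 (adjusted p = 0.404 in limma), and Tgfbr3, the betaglycan gene, differed by -0.44.

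The next list held 44 measured genes, drawn up as ligands and receptors linked to heparan sulfate, and their binding was not tested. Ndnf, a secreted neurotrophic factor, was the 1 of them that passed. Its mean level was 6.43 ± 0.43 without the overexpression and 9.18 ± 0.29 with it (log2, SD of 4 arrays). The groups did not overlap, and the difference was 2.75 (SE 0.22, limma adjusted p = 0.000108). The list had 4 genes higher and 3 lower at an unadjusted p under 0.05, beside 3.55% and 4.17% of all rows, and its median was -0.05. Fgf18, a fibroblast growth factor, had 6.62, 7.28, 6.32 and 6.93 in wild type hearts and 7.74, 7.62, 7.94 and 8.56 in miR-100 hearts. The groups did not overlap, and the difference was 1.18 (SE 0.24) with a limma adjusted p of 0.0846. Fgf16, another fibroblast growth factor of the heart, differed by 0.50 and the receptor-like gene Fgfrl1 by 0.34. Hbegf, the heparin-binding EGF-like factor gene, differed by -0.60, the receptor gene Antxr1 by -0.53 and Fgf2 by -0.47. None of these passed. Of 27 genes of Wnt and hedgehog signalling 0 passed (limma), with 1 higher and 5 lower at an unadjusted p under 0.05 (3.55% and 4.17% of all rows) and a median of -0.11. Fzd4, a Wnt receptor gene, had the lowest p at -0.64 (SE 0.15, limma adjusted p = 0.199).

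**Figure D5:**
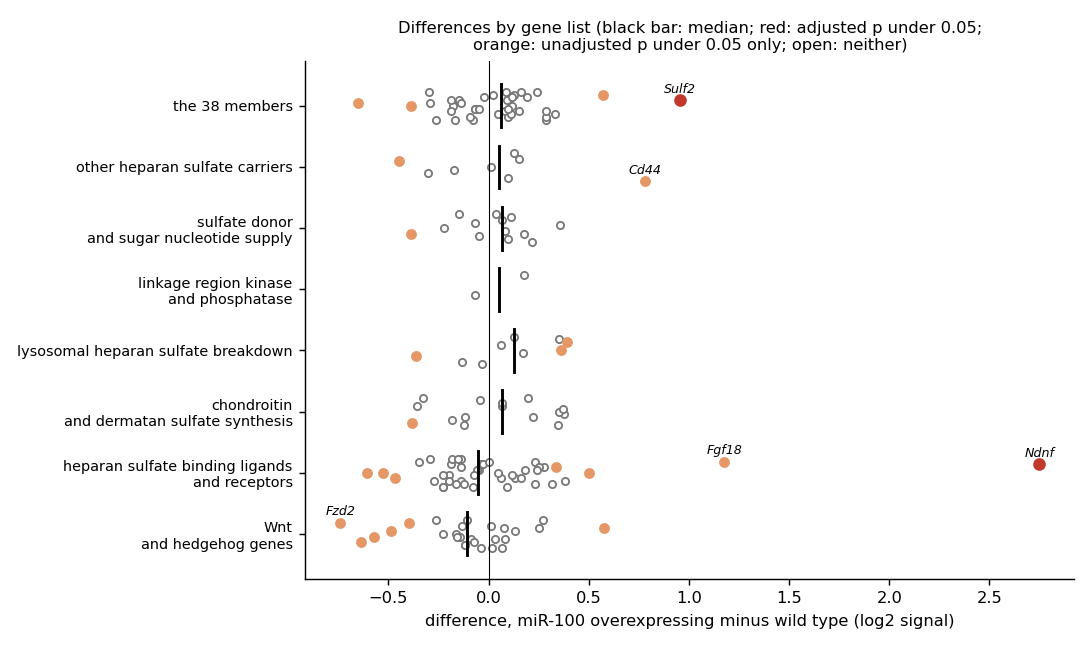
Difference between miR-100 overexpressing and wild type hearts (log2 signal, x axis) for each gene of the set and of the 7 surrounding lists, with the list's median as a black bar. The red points are Sulf2 at 0.96 and Ndnf at 2.75, and the orange points have an unadjusted p under 0.05 alone.

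In whole ventricle, more cells of a type and more RNA per cell cannot be told apart. The tissue label was borne out by the 10 heart muscle markers, all above the 90th percentile of row means. In the dim range lay 5 of 6 markers of the epicardium, 4 of 5 of Schwann cells and neurons, 4 of 7 of mast cells and 2 of 6 atrial ones. So did 1 of 10 of pericytes and smooth muscle (Cnn1) and 1 of 9 of macrophages (Cx3cr1). The mean log2 signal of each marker list per array overlapped between the groups in all 10 lists, though such a mean hides members that move opposite ways. They ran from 11.59 to 11.69 in wild type and 11.52 to 11.70 in miR-100 hearts for 13 endothelial markers, from 10.02 to 10.36 and 9.92 to 10.24 for 9 fibroblast markers, from 9.53 to 9.73 and 9.47 to 9.79 for 10 markers of pericytes and smooth muscle, and from 8.23 to 8.53 and 8.23 to 8.55 for 9 macrophage markers. The ranges were 4.74 to 5.07 and 4.97 to 5.27 for 5 markers of Schwann cells and neurons, 4.32 to 4.60 and 4.28 to 4.40 for 6 of the epicardium, and 8.33 to 8.46 and 8.24 to 8.43 for 7 of endocardium and lymphatic vessels. They were 5.03 to 5.38 and 5.02 to 5.28 for 7 mast cell markers, 18.88 to 18.95 and 18.84 to 18.91 for the heart muscle markers, and 7.27 to 7.39 and 7.28 to 7.41 for 6 atrial markers. The heart muscle marker Mb stood at 19.93, the highest value of the table, in all 4 miR-100 arrays. In wild type replicates 1 to 4 it had 19.93, 19.88, 19.93 and 19.93. A rise could hardly show in Mb, so the overlap of the list says little about a rise in rows near its level. Ryr2, Tnni3 and Myl3 lay further below, with wild type means of 15.485, 18.23 and 18.275. They differed by 0.21, -0.07 and -0.28. Nppa of the atrial list went from a mean of 17.315 to 18.355, so a rise could show at that level. Whether a ceiling hid a rise in the brighter heart muscle rows was not tested. None of the 82 markers measured passed (0 in limma). At an unadjusted p under 0.05 there were 9 of them, or 10.98%, beside 7.73% of all rows, with 5 higher and 4 lower (3.55% and 4.17% of all rows). The smooth muscle actin gene Acta2 differed by 1.11 and Ncam1, from the list of Schwann cells and neurons, by 1.06. The other 4 markers of that list were dim. Nppa, which is also raised by load, differed by 1.04, the endothelial gene Cldn5 by 0.55 and the endocardial and vessel gene Plvap by 0.57. The lower ones were Lyve1 of lymphatic vessels at -0.64, the pericyte gene Kcnj8 at -0.31, Dkk3 of the atrial list at -0.40 and the mesothelial gene Upk3b at -0.60. In the remaining lists the lowest p was that of Col1a2 for fibroblasts at -0.37, Fcgr1 for macrophages at -0.24, Mcpt4 for mast cells at 0.30 and Myl3 for heart muscle at -0.28. Among smooth muscle genes beside Acta2, Myh11 differed by -0.06, Tagln by -0.19 and Cnn1, a dim row, by 0.055. The list with Acta2 had 5 of 10 genes above 0 and a median of -0.0175. That with Ncam1 had 3 of 5 and 0.0775, and that with Nppa 2 of 6 and -0.1375. Acta2 passed without miR-100 replicate 4 (limma adjusted p = 0.0442) and Ncam1 without wild type replicate 4 (0.0374). Nppa, at a limma adjusted p of 0.0616, passed under 3 other settings of the fit, an intensity trend, a filter at the 50th percentile of row means and a replicate block. The part of these cell types in the rise of Sulf2 was not tested.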

How the data were processed

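Left ventricular RNA of 8 mice was hybridised to 8 Affymetrix arrays. The authors deposited log2 signals, 1 row per transcript cluster. The submitters' processing notes name Transcriptome Analysis Console 4.0; summarization, normalization and genome build are not given in the sources used here. Array medians lay between 5.70 and 5.74, and correlations between arrays between 0.988 and 0.993. The platform annotation gave 1 symbol for 19572 of 22206 rows. Values were used as deposited. limma 3.58.1 in R 4.3.3 was fitted to the whole table with no covariate, and Benjamini-Hochberg adjustment covered every row. Each difference is the miR-100 mean less the wild type mean. The code was tested on simulated data first.

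The members and lists were chosen with earlier results of these data known. By rule, values in every array are given for members past the threshold, Hs3st2, Hs3st3b1, members at an unadjusted p under 0.05 or without overlap, and their partners; other members are given by difference, with examples. Each pathway or cell type list is given by counts, its median and its gene with the lowest p. The odorant receptor gauge, the further array values (Ext2, Hspg2 and others), Tgfbr3, Fgf2, Fgf16, Fgf18, Fgfrl1, Hbegf, Antxr1, Lyve1, Kcnj8, Dkk3, Myh11, Tagln, Cnn1 and Mb were added after values were seen. Alternatives were other variance moderation, array weights, normalization, centring, filters on dim rows, rows with a symbol, a looser threshold, a block for the replicate number, and each array left out. A search for miR-100 seed sites was not run.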

Additional observations from a re-analysis of the deposited data

Results flagged for a closer look

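Ndst4 in wild type hearts was the 1 group of 76 examined (38 genes in 2 groups of 4 arrays) in which a sample stood far from the others. Wild type replicate 2 had 4.36, and the group's other values ran from 3.11 to 3.21. Chance alone would mark about 1 group in 20. The row was dim, and no call rests on it. Over the whole table the limma array weight of wild type replicate 2 was 0.61, and the other arrays had 0.931 to 1.27. Over the 38 genes its median absolute deviation from the group mean was 0.1862, beside 0.1938 in wild type replicate 1 and 0.1888 in miR-100 replicate 3.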

How the results depend on the processing

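Of the 38 genes, 25 kept the direction of their difference in every setting that gave a value, among 17 settings, and 13 changed sign when 1 array was left out; none of the 37 genes that had not passed did so under any setting (lowest limma adjusted p = 0.255). The rows past the threshold over the whole table numbered 65 with an intensity trend, 65 at an adjusted p of 0.1, and 11 to 27 with an array left out. Sulf2 kept its call under trend, robust moderation, array weights, quantile normalization, centring, both filters and rows with a symbol (limma adjusted p 0.00662 to 0.0484), and its difference ran from 0.85 to 1.04 with an array left out, where 0 or 1 of the 38 genes passed. Deviations from the group means correlated at 0.0072, -0.0596, 0.0663 and -0.0239 between arrays of the same replicate number. Those of different numbers ran from -0.0606 to 0.0715. These values cannot show whether arrays shared a litter or batch. With a replicate block, 0 of the 38 genes passed, Sulf2 at 0.955 had a limma adjusted p of 0.0548, 21 rows passed (15 of them shared), and Sulf2 minus Sulf1 rose by 1.14. With an array left out that contrast ran from 1.005 to 1.30. The median difference was -0.0225 over the 21 genes above the 50th percentile of row means (Hs3st3b1 has no value there), and -0.0092 to 0.0521 with an array left out. Differences that changed sign with an array left out ran from -0.0358 to 0.12 (Hs3st3b1), -0.005 to 0.23 (Hs2st1), -0.11 to 0.0842 (Ext1), -0.005 to 0.16 (Ext2), -0.0333 to 0.31 (Extl1), -0.085 to 0.17 (Extl2), -0.0292 to 0.17 (Xylt2), -0.20 to 0.0225 (B3gat3), -0.20 to 0.0725 (Hpse2), -0.0383 to 0.26 (Sdc1), -0.31 to 0.13 (Sdc2), -0.33 to 0.02 (Gpc5) and -0.10 to 0.0325 (Hspg2). The causes were not tested. No gene had more than 1 row, so the alternative with other rows of a symbol was not run. The 4 arrays a group and the 14 dim rows limit the precision.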
